A study of Mus musculus with 12 samples.

Results

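The cells followed here are microglia, the macrophages within brain tissue, and the related macrophages of the meninges, vessels and choroid plexus, read through 10 genes in bulk RNA of embryonic mouse brain. The genes are C1qa, C1qb, C1qc, Csf1r, Cx3cr1, P2ry12, Trem2, Tyrobp, Aif1 and Mrc1. Each was matched by its symbol to 1 of 40690 gene identifiers in the deposited count table, and all 10 were among the 16002 genes with enough counts to be tested. They count as chosen by their log2 levels in these embryos, because the lower values of microglia genes in LC1 knockouts were known when they were picked, so values of LC1 knockouts against LC1 wild types are given below as a description, with no test. Polyadenylated RNA came from whole brains of 12 C57BL/6J embryos collected at embryonic day 14.5, which form 4 groups of 3 with 1 library per embryo. LC1 knockouts (embryos 7, 22 and 71) lacked LC1, a conserved non-coding element upstream of the neuronal transcription factor gene Pou3f2, and were set against LC1 wild types (embryos 6, 26 and 73); all 6 were female. RKI homozygous embryos (males A1 and A18, female A10) carried a knock-in of the human sequence variant rs77910749 on both alleles, and were set against RKI embryos wild type for it (males A2 and A16, female A9). Per the labels' protocol mutants and wild types were matched by sex and litter, but no label names a litter, and the sources used here do not give the number of founders of each line.

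Microglia descend from yolk sac progenitors that enter the neural tube early in development, and they survive through the receptor CSF1R, which binds CSF1 and IL-34. They make most of the complement protein C1q of the brain, clear dying cells and synapses, and contact neurons through the chemokine receptor CX3CR1 and the ADP receptor P2RY12. TREM2 is a lipid-sensing receptor that signals through the adaptor TYROBP, also called DAP12. AIF1, also called IBA1, binds actin and is the usual stain for these cells. MRC1, the mannose receptor CD206, marks border macrophages, whereas P2RY12 marks microglia of the parenchyma, and the contrast of these markers was used to keep both populations apart.

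Promoters are shown for 4 genes because they span both populations: the C1q pair C1qb and C1qc, the border marker Mrc1 and the parenchymal marker P2ry12. The RefSeq table of promoters on GRCm38.p6 holds 7 of the 10 genes, each from 250 bases before to 50 bases after the RefSeq start of the gene. That start can differ from the one in GENCODE M21, used below for gene positions. The P2ry12 window lies wholly before the GENCODE gene, whose start on the minus strand is chr3:59262871. Capitals mark GAGGAA or its reverse complement TTCCTC, the purine-rich core that factors of the PU.1 type bind in myeloid genes, searched on both strands.
C1qb: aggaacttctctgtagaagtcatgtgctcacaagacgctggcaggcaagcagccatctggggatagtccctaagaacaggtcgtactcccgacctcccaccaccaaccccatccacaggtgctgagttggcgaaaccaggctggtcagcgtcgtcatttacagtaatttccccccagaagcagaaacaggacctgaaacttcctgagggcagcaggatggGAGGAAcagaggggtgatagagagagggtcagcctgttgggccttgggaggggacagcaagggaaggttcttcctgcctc
C1qc: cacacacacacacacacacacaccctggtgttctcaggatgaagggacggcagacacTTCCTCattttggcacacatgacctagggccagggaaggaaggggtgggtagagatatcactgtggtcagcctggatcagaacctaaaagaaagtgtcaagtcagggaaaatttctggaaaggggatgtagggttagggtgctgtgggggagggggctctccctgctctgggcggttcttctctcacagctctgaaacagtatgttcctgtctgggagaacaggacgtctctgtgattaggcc
Mrc1: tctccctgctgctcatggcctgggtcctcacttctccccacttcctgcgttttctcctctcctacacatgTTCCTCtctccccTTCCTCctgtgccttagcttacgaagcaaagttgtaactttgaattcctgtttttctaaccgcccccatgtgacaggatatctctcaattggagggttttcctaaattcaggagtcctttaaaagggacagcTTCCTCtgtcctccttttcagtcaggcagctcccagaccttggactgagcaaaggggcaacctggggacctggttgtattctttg
P2ry12: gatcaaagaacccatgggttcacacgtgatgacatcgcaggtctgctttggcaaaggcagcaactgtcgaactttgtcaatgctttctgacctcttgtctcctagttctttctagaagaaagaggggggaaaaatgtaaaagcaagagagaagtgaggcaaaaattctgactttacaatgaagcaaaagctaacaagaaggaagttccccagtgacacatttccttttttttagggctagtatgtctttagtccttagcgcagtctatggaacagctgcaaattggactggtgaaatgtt
The C1qb window is chr4:136886151-136886450 on the minus strand and the C1qc window chr4:136892865-136893164 on the minus strand. The Mrc1 window is chr2:14229164-14229463 on the plus strand and the P2ry12 window chr3:59262936-59263235 on the minus strand. GAGGAA was found in 5 of the 7 promoters, 3 times in Mrc1 and not in P2ry12, and 28.3% of all 32851 promoters of the same length hold it. The longer GAGGAAGT, which contains the shorter motif, was found in C1qc alone of the 7, and 3.2% of all promoters hold it. Other sequences with the bases GGAA, which the P2ry12 window also holds, were not searched. The matches and their absence describe the letters of the windows and nothing about binding.

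The C1q genes are neighbours. In GENCODE M21 on GRCm38, matched by Ensembl identifier, C1qb (ENSMUSG00000036905, chr4:136880129-136886187), C1qc (ENSMUSG00000036896, chr4:136889804-136893065) and C1qa (ENSMUSG00000036887, chr4:136895917-136898803) follow each other on the minus strand of the chromosome that also holds Pou3f2, 114.4 Mb away. Mrc1 (ENSMUSG00000026712) lies on chromosome 2, P2ry12 (ENSMUSG00000036353) on 3, Tyrobp (ENSMUSG00000030579) on 7, Cx3cr1 (ENSMUSG00000052336) on 9, Aif1 (ENSMUSG00000024397) and Trem2 (ENSMUSG00000023992) on 17, and Csf1r (ENSMUSG00000024621) on 18. Exons of Csf1r share 873 of their 5774 bases, 15.1%, with Hmgxb3 on the opposite strand. The shared part is 0.353% for P2ry12, with Med12l, and 1.73% for Cx3cr1, with Gm33858. The sources used here do not give the strand setting of the counting, so reads from these stretches cannot be assigned to either gene.

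All 10 genes were detected in every embryo. Libraries held 18192984 to 26566769 counts, of which the 10 genes took 2559 to 4364. The number of counts sets the precision: Mrc1 had 726 to 1288 counts per embryo, P2ry12 had 65 to 117 and Aif1 had 12 to 28. For Aif1 the SD on the log2 scale that counting alone gives, 0.325, was nearly as large as the SD within groups, 0.337, and for P2ry12 the counting SD of 0.151 was above the SD within groups of 0.085. Markers outside the 10 genes also placed myeloid cells in every library. The myeloid transcription factor Spi1, which encodes PU.1, had 84 to 131 counts, and the microglia surface marker Tmem119 had 70 to 133. Of 15 markers of other leukocytes 5 were counted in every library: Kit, which also marks other cells, the granulocyte genes S100a9 at 1 to 10 counts and Ngp and Mpo at 1 to 11, and the B cell gene Cd79a at 1 to 4. The neutrophil marker Ly6g and the T cell marker Cd3e had at most 1 and 2 counts, and were at 0 in 11 and 10 of the 12 libraries.

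By the deposited RPKM per gene, C1qb was the most abundant of the 10, and Trem2 and Aif1 the least. In deposited RPKM, a length-scaled level, C1qb averaged 12.9 ± 1.145 (SD over 12 embryos) and Csf1r 9.01 ± 0.682, and C1qb was above Csf1r in 12 of 12 embryos. Csf1r was in turn above Mrc1 in 12 of 12. Mrc1 at 7.48 ± 0.910 and C1qc at 7.32 ± 0.807 RPKM could not be ordered, since Mrc1 was higher in 6 of 12 embryos. C1qc was above C1qa in 11 of 12. C1qa at 6.26 ± 1.09 and Tyrobp at 6.11 ± 0.991 RPKM could not be ordered either, with C1qa higher in 6 of 12. Cx3cr1 followed at 4.63 ± 0.397 RPKM and P2ry12 at 1.78 ± 0.174, each separated from its neighbours in all 12 embryos. Aif1 at 0.616 ± 0.132 and Trem2 at 0.575 ± 0.101 RPKM came last, with Aif1 the higher in 8 of 12. The deposited transcript RPKM place some neighbours differently: C1qc-001 had 6.70 to 9.64, above Mrc1-001 at 3.55 to 5.35 in all 12 embryos, and Tyrobp-201 had 5.55 to 8.87, beside C1qa-001 at 3.58 to 6.09. Trem2-002 had 0.473 to 2.35, Aif1-007 0.401 to 1.94 and P2ry12-201 0.679 to 1.92, ranges that overlap. C1qb-001 had 8.11 to 10.43, a range that overlaps that of C1qc-001. Csf1r was split over Csf1r-001 at 3.04 to 5.24 and Csf1r-201 at 2.16 to 2.93. The whole order, with the places of C1qb and Csf1r and the separation of P2ry12 from Trem2 and Aif1, is therefore stated for RPKM per gene only.

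**Figure D1:**
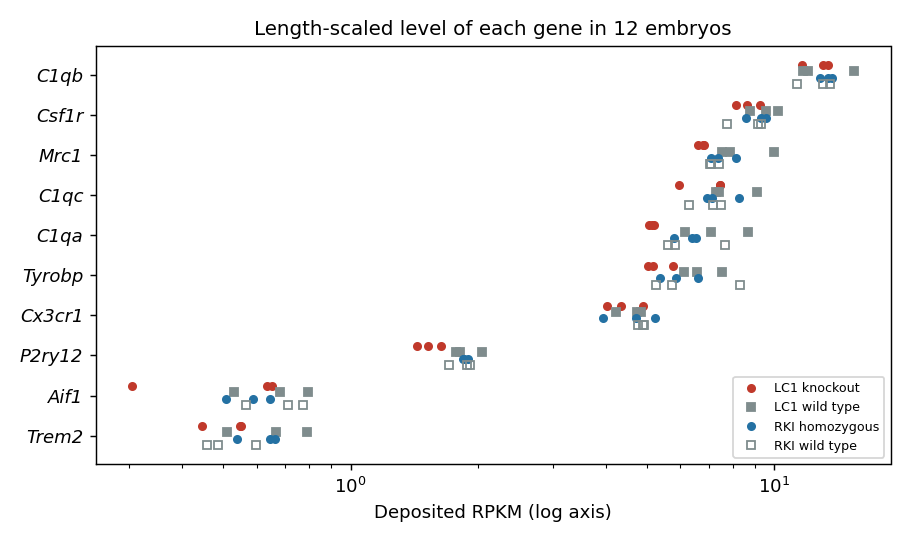
Deposited RPKM of each of the 10 genes (rows, ordered by mean) in 12 embryos on a log axis, with 1 point per embryo: LC1 knockouts as red circles, LC1 wild types as filled grey squares, RKI homozygous embryos as blue circles and RKI wild types as open grey squares. C1qb lies at 11.3 to 15.5 RPKM and P2ry12 at 1.44 to 2.05.

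The central description is that all 10 genes were lower in LC1 knockouts than in LC1 wild types, with ratios from 0.703 for C1qa to 0.975 for C1qb, while the 10 genes were spread around no difference in RKI homozygous embryos against RKI wild types. In LC1 the log2 fold changes (knockout over wild type) had a median of -0.31, beside -0.003 over all 16002 genes, and 51.4% of all genes were lower. Between LC1 groups 4 of the 10 genes had all 3 knockouts below all 3 wild types (C1qa, Mrc1, P2ry12 and Tyrobp), beside 3.81% of all genes. Because the genes were chosen with this comparison known, nothing is read from these counts. At an adjusted p under 0.05 edgeR called 0 of 16002 genes (0%) in this comparison, with 334 (2.09%) at an unadjusted p under 0.05, and DESeq2 and limma-voom called 0 as well. Without wild type 6 the unadjusted count was 217, and without wild type 73 it was 719. In bulk tissue, fewer cells of a type and less RNA per cell cannot be told apart.

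C1qa, the A chain of C1q, showed the lowest ratio among the 10. It had 5.34, 5.32 and 5.41 CPM (counts scaled to a common library size by TMM) in LC1 knockouts 7, 22 and 71, against 9.17, 7.32 and 6.35 CPM in LC1 wild types 6, 26 and 73. The knockouts were nearly equal to each other and lay below every wild type, and the wild types were spread. The log2 fold change was -0.51 (SE 0.148), a ratio of 0.703. Between RKI groups C1qa had 6.67, 6.00 and 6.91 CPM in homozygous embryos A1, A10 and A18, against 7.94, 5.89 and 5.99 CPM in wild-type embryos A2, A9 and A16. The RKI groups overlapped, with a log2 fold change of -0.021 (SE 0.142).

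C1qb and C1qc, which encode the other chains of the same protein, did not show the separation of C1qa in LC1. C1qb had 12.9, 14.5 and 14.2 CPM in LC1 knockouts 7, 22 and 71, against 17.1, 12.6 and 12.95 CPM in LC1 wild types 6, 26 and 73. Wild type 6 was the highest of the 6 and the other wild types lay among or below the knockouts, and the log2 fold change was -0.037 (SE 0.117). C1qc had 11.7, 14.3 and 14.3 CPM in those knockouts, against 17.85, 14.25 and 14.0 CPM in those wild types, a log2 fold change of -0.19 (SE 0.123) between groups that overlapped. In the RKI experiment C1qb averaged 14.5 ± 0.480 CPM in homozygous embryos and 13.7 ± 1.37 CPM in wild types (SD, n = 3 each). C1qc averaged 14.4 ± 1.53 CPM in RKI homozygous embryos and 13.5 ± 1.30 CPM in RKI wild types (SD, n = 3 each), and for both genes the groups overlapped.

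Since the 3 chains assemble into 1 protein, their proportions were also compared within each embryo, as shares of their summed RPKM. C1qa made up 22.3%, 19.8% and 20.3% in LC1 knockouts 7, 22 and 71, against 26.1%, 27.1% and 24.2% in LC1 wild types 6, 26 and 73, so the groups did not overlap. The share of C1qb was 51.4%, 51.6% and 50.8% in those knockouts, against 46.5%, 44.6% and 47.1% in those wild types. The share of C1qa was therefore lower and that of C1qb higher in each of these knockouts, in a measure that does not depend on scaling between libraries. Among RKI embryos C1qa made up 24.5%, 21.8% and 23.2% in homozygous embryos A1, A10 and A18, against 26.7%, 21.7% and 24.9% in wild-type embryos A2, A9 and A16, and the groups overlapped. The C1qc share varied least over the 12 embryos, from 26.1% to 29.3%. The sizes of the shares hold for RPKM per gene only. In transcript RPKM C1qb-001 at 8.11 to 10.43 and C1qc-001 at 6.70 to 9.64 overlapped. These shares carry no test, as the LC1 contrast bears on the choice of genes and C1qa had only 100 to 204 counts per embryo.

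Mrc1, the border macrophage marker, was lower in every LC1 knockout than in any LC1 wild type. It had 41.2, 40.3 and 39.3 CPM in LC1 knockouts 7, 22 and 71, against 60.5, 46.6 and 44.3 CPM in LC1 wild types 6, 26 and 73. The knockouts lay close together, and wild type 6 stood well above all other embryos. The log2 fold change was -0.33 (SE 0.095), a ratio of 0.797. In the RKI experiment Mrc1 had 43.98, 42.0 and 49.15 CPM in homozygous embryos A1, A10 and A18, against 42.0, 42.4 and 43.4 CPM in wild-type embryos A2, A9 and A16. Homozygous embryo A18 was the highest of these 6 and the groups overlapped, with a log2 fold change of 0.080 (SE 0.094).

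P2ry12, the parenchymal marker, was also lower in every LC1 knockout than in any LC1 wild type. It had 3.47, 3.89 and 3.62 CPM in LC1 knockouts 7, 22 and 71, against 4.96, 4.205 and 4.28 CPM in LC1 wild types 6, 26 and 73. The 3 knockouts were the lowest of all 12 embryos. The log2 fold change was -0.29 (SE 0.139), a ratio of 0.819. For the RKI groups P2ry12 had 4.506, 4.375 and 4.465 CPM in homozygous embryos A1, A10 and A18, against 4.476, 4.095 and 4.505 CPM in wild-type embryos A2, A9 and A16. All 6 lay close together, with a log2 fold change of 0.029 (SE 0.131).

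**Figure D2:**
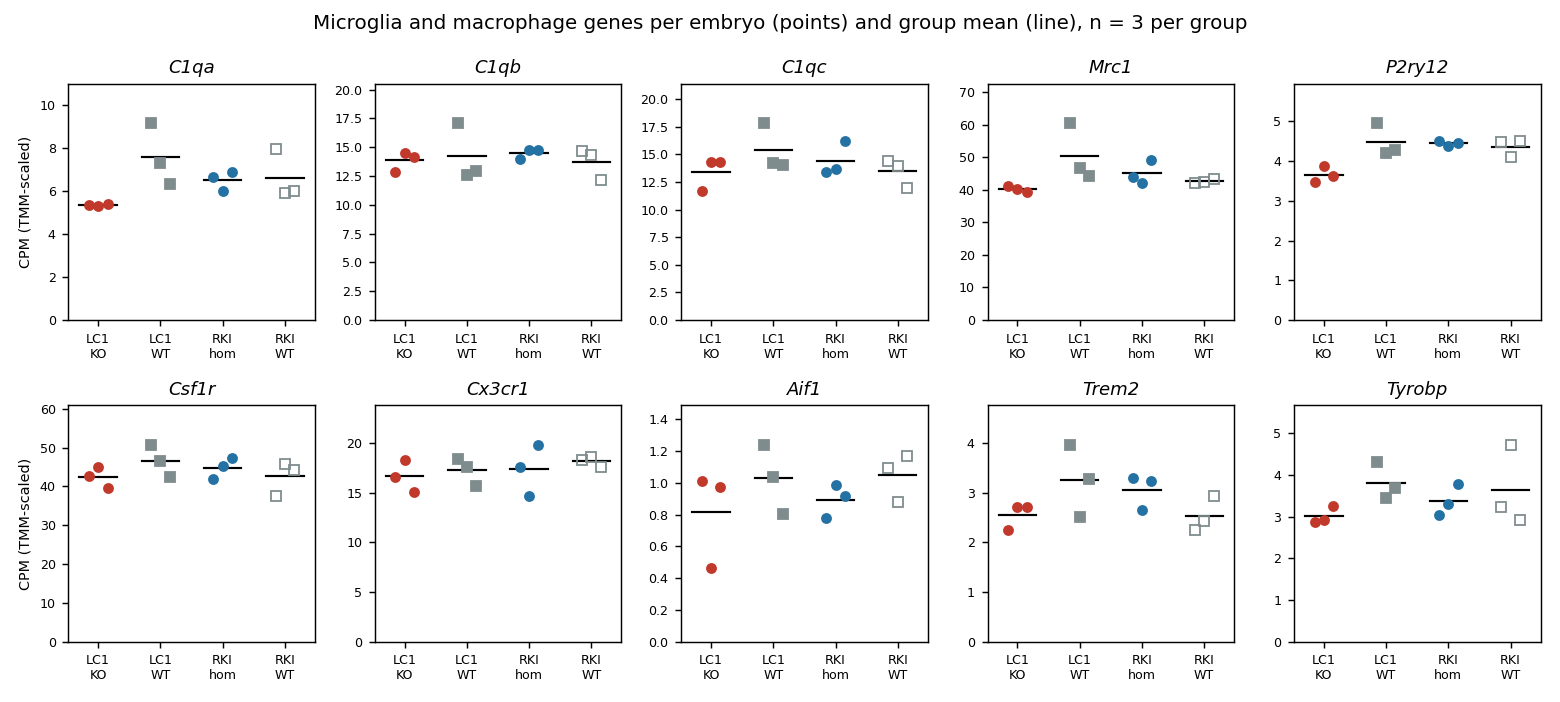
TMM-scaled CPM of each gene (1 panel per gene, axes from 0) in each embryo (points; LC1 knockouts red, LC1 wild types filled grey, RKI homozygous embryos blue, RKI wild types open grey) with the group mean as a line, 3 embryos per group. In the panels of C1qa, Mrc1, P2ry12 and Tyrobp the 3 LC1 knockouts lie below the 3 LC1 wild types, and in no panel do the RKI groups separate.

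Csf1r and Cx3cr1, receptors that both macrophage types carry, differed less. Csf1r had 42.7, 44.96 and 39.6 CPM in LC1 knockouts 7, 22 and 71, against 50.7, 46.5 and 42.5 CPM in LC1 wild types 6, 26 and 73. The groups overlapped, with a log2 fold change of -0.13 (SE 0.085). In the RKI experiment Csf1r had 41.9, 45.2 and 47.3 CPM in homozygous embryos A1, A10 and A18, against 37.6, 45.8 and 44.2 CPM in wild-type embryos A2, A9 and A16, a log2 fold change of 0.078 (SE 0.083). Cx3cr1 averaged 16.65 ± 1.61 CPM in LC1 knockouts and 17.3 ± 1.398 CPM in LC1 wild types (SD, n = 3 each), with a log2 fold change of -0.047 (SE 0.106). It averaged 17.4 ± 2.58 CPM in RKI homozygous embryos and 18.2 ± 0.503 CPM in RKI wild types (SD, n = 3 each), and homozygous embryos A10 at 14.7 CPM and A18 at 19.8 CPM were the extremes of all 12. Whether the 10 genes differ from each other in these values was not tested.

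Trem2 and its adaptor Tyrobp were read from few counts. Tyrobp had 2.88, 2.915 and 3.245 CPM in LC1 knockouts 7, 22 and 71, against 4.31, 3.44 and 3.68 CPM in LC1 wild types 6, 26 and 73. The knockouts lay below the wild types, with a log2 fold change of -0.34 (SE 0.178). Trem2 had 2.24, 2.72 and 2.705 CPM in those knockouts, against 3.97, 2.51 and 3.275 CPM in those wild types, and the groups overlapped, with a log2 fold change of -0.35 (SE 0.191). In RKI Trem2 had 3.29, 2.65 and 3.24 CPM in homozygous embryos A1, A10 and A18, against 2.26, 2.42 and 2.93 CPM in wild-type embryos A2, A9 and A16. Its log2 fold change of 0.28 (SE 0.185) was the largest of the 10 in that experiment, in groups that overlapped, and Tyrobp had -0.081 (SE 0.170) there. Aif1 had 19, 12 and 18 counts in LC1 knockouts 7, 22 and 71, against 25, 19 and 16 counts in LC1 wild types 6, 26 and 73, with a log2 fold change of -0.38 (SE 0.322). In the RKI experiment Aif1 had 18, 20 and 24 counts in homozygous embryos, against 28, 21 and 26 counts in wild types, a log2 fold change of -0.23 (SE 0.297).

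**Figure D3:**
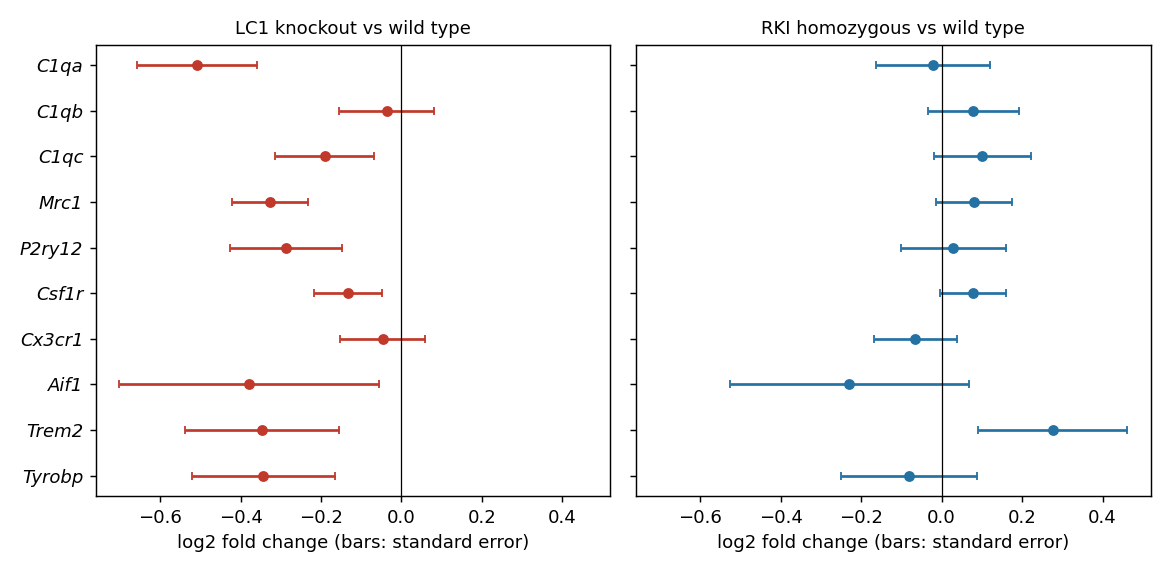
Log2 fold change of each gene with its standard error (bars) from the edgeR fit, LC1 knockout over wild type (left, red) and RKI homozygous over wild type (right, blue), 3 embryos per group. On the left all 10 points lie below 0, from -0.51 for C1qa to -0.037 for C1qb, and on the right they lie between -0.23 and 0.28.

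Across RKI embryos none of the 10 genes passed the test. edgeR's quasi-likelihood test called 0 of the 10 and 0 of 16002 genes (0%) at a Benjamini-Hochberg adjusted p under 0.05, with 307 genes (1.92%) at an unadjusted p under 0.05 and none of the 10 among them, and DESeq2 and limma-voom called 0 genes. With a block over neighbouring embryo numbers, which no label pairs, edgeR called 3 genes, none of them among the 10. The unadjusted count was 187 without homozygous embryo A1, 501 without wild type A2, 1323 without wild type A9 and 1342 without homozygous embryo A10. The adjusted p was 1 for each of the 10, and the smallest unadjusted p was 0.154, for Trem2. Of the 10, 6 were higher and 4 lower in homozygous embryos, beside 50.6% of all genes higher, with a median log2 fold change of 0.054, beside 0.001 over all genes. No gene of the 10 had separate RKI groups, beside 2.59% of all genes with all 3 homozygous embryos above and 3.07% with all 3 below. The intervals bound what could have been missed: the 95% interval for Mrc1 ran from -0.12 to 0.28, for P2ry12 from -0.25 to 0.305 and for C1qa from -0.32 to 0.28. Wider ones were -0.855 to 0.398 for Aif1, -0.114 to 0.666 for Trem2 and -0.439 to 0.278 for Tyrobp. The LC1 log2 fold changes of Aif1 (-0.38), Tyrobp (-0.34), Cx3cr1 (-0.047) and C1qb (-0.037) lie inside their RKI intervals. For Cx3cr1 that interval ran from -0.282 to 0.151, and for C1qb from -0.162 to 0.319. The RKI median was 0.005 without homozygous embryo A18, 0.007 without wild type A16, 0.109 without wild type A9 and 0.11 without homozygous embryo A10. The LC1 effect minus the RKI effect is given for all 10 as a description, because it holds the LC1 contrast. It was -0.49 (SE 0.205) for C1qa, -0.41 (SE 0.133) for Mrc1, -0.32 (SE 0.191) for P2ry12 and -0.62 (SE 0.266) for Trem2. For C1qc it was -0.29 (SE 0.172), for Tyrobp -0.26 (SE 0.246) and for Csf1r -0.21 (SE 0.119). Smaller values were -0.15 (SE 0.438) for Aif1, -0.12 (SE 0.164) for C1qb and 0.018 (SE 0.147) for Cx3cr1.

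The size of the LC1 values rests partly on wild type 6. Its 10 genes summed to 188.1 CPM, and the other 11 embryos lay between 138.3 and 166.4 CPM. The mean deviation of the 10 genes from their averages, in log2 units, was 0.33 in wild type 6 and 0.12 in the next highest embryo, RKI homozygous A18. Without wild type 6, 8 of the 10 genes were lower and the median was -0.18. C1qb then had a log2 fold change of 0.12 and Cx3cr1 of 0.003, so both turned to the other side of 0. Mrc1 had -0.18, P2ry12 -0.21, C1qa -0.35 and Tyrobp -0.245 without that embryo. Leaving out knockout 7 moved C1qb to 0.012 and leaving out knockout 71 moved Cx3cr1 to 0.020, and with any other embryo left out all 10 stayed lower. The authors' deposited table for LC1 also has all 10 genes lower, with a median log2 fold change of -0.295 and a range of -0.50 to -0.023, from the same libraries.

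**Figure D4:**
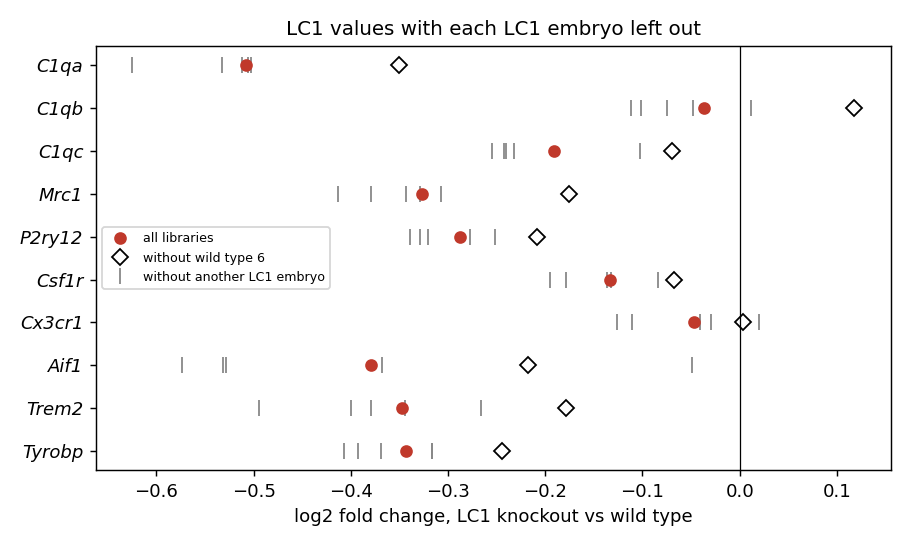
Log2 fold change of each gene, LC1 knockout over wild type, from all 12 libraries (red circles), without wild type 6 (open diamonds) and without each of the other 5 LC1 embryos in turn (ticks). The diamonds lie to the right of the circles for all 10 genes, at -0.18 for Mrc1 and at 0.12 for C1qb.

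Markers of other tissues moved with wild type 6 as well. The library had the highest of the 12 scores for meninges and mesenchyme (0.22), choroid plexus (0.198) and erythroid blood (0.35), in mean log2 deviation. RKI wild type A16 had nearly the same choroid plexus score (0.193). For endothelium and pericytes knockout 7 was highest (0.148), with wild type 6 at 0.047. Knockout 71 had the lowest of the 12 scores for meninges and mesenchyme (-0.29) and for choroid plexus (-0.166). In LC1 knockouts against LC1 wild types 14 of 15 meninges genes were lower, with a median of -0.165 (-0.061 without wild type 6) and sums of 1877 to 2486 CPM in knockouts and 2223 to 2548 CPM in wild types. Tbx18 at -0.23 and the collagen gene Col1a2 at -0.21 led that list. The choroid plexus list had 9 of 12 lower with a median of -0.094 (-0.022 without wild type 6), sums of 715.2 to 825.1 CPM in knockouts and 777.4 to 987.5 CPM in wild types, and was led by Kcne2 at -0.24 and Calml4 at -0.43. Endothelium and pericyte genes had 13 of 15 lower with a median of -0.052 (0.008 without wild type 6) and summed to 650.7 to 781.5 CPM in knockouts and 697.3 to 730.2 CPM in wild types, with Flt1 at 0.16 and Cldn5 at -0.072. Erythroid genes had 7 of 12 lower with a median of -0.055 (0.080 without wild type 6) and summed to 1225 to 2289 CPM in knockouts and 1409 to 2068 CPM in wild types, with Hbb-bt at -0.335 and Bpgm at -0.11. Neuron and progenitor genes had 5 of 16 lower with a median of 0.069 (0.037 without wild type 6) and summed to 9826 to 9994 CPM in knockouts and 9480 to 10260 CPM in wild types, with Fabp7 at -0.19 and Tbr1 at 0.15. No marker of these 5 lists was at 0 in all libraries, and the part of these tissues in the values of the 10 genes was not tested.

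Wider myeloid lists showed the same order of LC1 groups at smaller sizes. Of 25 pan-myeloid genes, all tested, 24 were lower in LC1 knockouts, with a median log2 fold change of -0.17 (17 of 25 and -0.10 without wild type 6). Ncf4, a subunit of the phagocyte oxidase with 4 to 16 counts per library, had -1.44 (SE 0.400) and Ly86, a partner of a lipopolysaccharide-sensing receptor, had -0.39 (SE 0.178). Of 13 border macrophage genes tested of 16, Mrc1 among them, 10 were lower with a median of -0.13 (10 of 13 and -0.085 without wild type 6). F13a1, the A chain of coagulation factor XIII, had -0.26 (SE 0.097) beside Mrc1. Of 16 parenchymal microglia genes, P2ry12 among them, 13 were lower with a median of -0.085, and without wild type 6 the list had 7 of 16 lower and a median of 0.002. After P2ry12 its leading gene was the protease inhibitor gene Cst3 at -0.16 (SE 0.088), and the sum of that list was mostly Sparc, Cst3 and Sall1, which other brain cells also express. Genes of microglia in proliferative regions had 12 of 12 lower with a median of -0.14 (7 of 12 and -0.016 without wild type 6), led by Cd63 at -0.16 and Ctsb at -0.10, both broadly expressed.

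The pathways around the 10 genes held few differences in LC1. Among 9 genes of CSF1R ligands and signalling 6 were lower, with a median of -0.094 (5 of 9 and -0.068 without wild type 6) and with Csf1r and the ubiquitin ligase gene Cbl at 0.18 (SE 0.092) leading. Among 10 tested genes of the TREM2 and TYROBP axis 7 were lower with a median of -0.031 (5 of 10 and -0.05 without wild type 6), led by Apoe, a lipid carrier that radial glia also make, at -0.26 (SE 0.081) and by Tyrobp. Of 11 tested genes of chemokine and nucleotide signalling 8 were lower with a median of -0.051 (6 of 12 and -0.01 without wild type 6), led by P2ry12 and by Tgfb1 at -0.165 (SE 0.117). Of 14 tested complement genes 10 were lower with a median of -0.049 (8 of 14 and -0.064 without wild type 6), led by C1qa and by Itgb2, a subunit of complement receptor 3, at 0.53 (SE 0.315) from 13 to 36 counts. Sirpb1a of the TREM2 list was at 0 in all 12 libraries. Of 15 markers of other leukocytes only Kit had enough counts to be tested, and it also marks other cells. These lists were chosen with earlier results known, and their LC1 medians are descriptions beside -0.003 over all genes.

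In the RKI experiment no gene of any of these lists passed the edgeR test. The pan-myeloid list had 12 higher and 13 lower with a median of -0.001, led by Fcgr3 at 0.20 and Cybb at 0.38. The parenchymal list had 7 higher and 9 lower with a median of -0.016, led by the fructose transporter gene Slc2a5 at -0.52 and Ltc4s at -0.51. The border list had 10 higher and 3 lower with a median of 0.080, led by Siglec1 at -0.42 and Cd163 at 0.90, the second from 2 to 23 counts. The list of microglia in proliferative regions had 8 higher and 4 lower with a median of 0.032, led by Cd9 at -0.26 and Igf1 at 0.21. Complement genes had 7 higher and 7 lower with a median of 0.003, with Cd47 at 0.12 among its leading genes. CSF1R signalling genes had 5 higher and 4 lower with a median of 0.039, and here the ligand genes Il34 at 0.29 and Csf1 at -0.088 led. The TREM2 axis had 4 higher and 6 lower with a median of -0.050, led by Trem2 and Clu at -0.10, and the chemokine and nucleotide list had 3 higher and 8 lower with a median of -0.014, led by P2ry6 at -0.23 and the CX3CR1 ligand gene Cx3cl1 at 0.17. Among other tissues the medians were 0.001 for meninges, -0.039 for endothelium and pericytes, -0.081 for choroid plexus, 0.087 for erythroid genes and -0.015 for neurons and progenitors.

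The ratio of border to parenchymal marker did not separate mutants from wild types in either experiment. The difference of Mrc1 and P2ry12 in log2 CPM was 3.53, 3.345 and 3.405 in LC1 knockouts 7, 22 and 71, against 3.59, 3.44 and 3.34 in LC1 wild types 6, 26 and 73. It was 3.26, 3.24 and 3.43 in RKI homozygous embryos A1, A10 and A18, against 3.205, 3.34 and 3.24 in RKI wild-type embryos A2, A9 and A16. Both pairs of groups overlapped. The means were 3.43 ± 0.096 in LC1 knockouts and 3.46 ± 0.121 in LC1 wild types, and 3.31 ± 0.107 in RKI homozygous embryos and 3.26 ± 0.072 in RKI wild types (SD, n = 3 each). The mutant minus wild type difference of -0.029 in LC1 and of 0.047 in RKI was within the SD of each group. Leaving out each embryo in turn gave -0.085 to 0.035 in LC1 and -0.015 to 0.087 in RKI. In RPKM per gene, Mrc1 was 3.76 to 4.88 times P2ry12 over the 12 embryos. That size holds for this measure only. Summed transcript estimates came to 0.633 to 0.778 times the gene count for Mrc1 and 1.18 to 1.35 times for P2ry12.

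**Figure D5:**
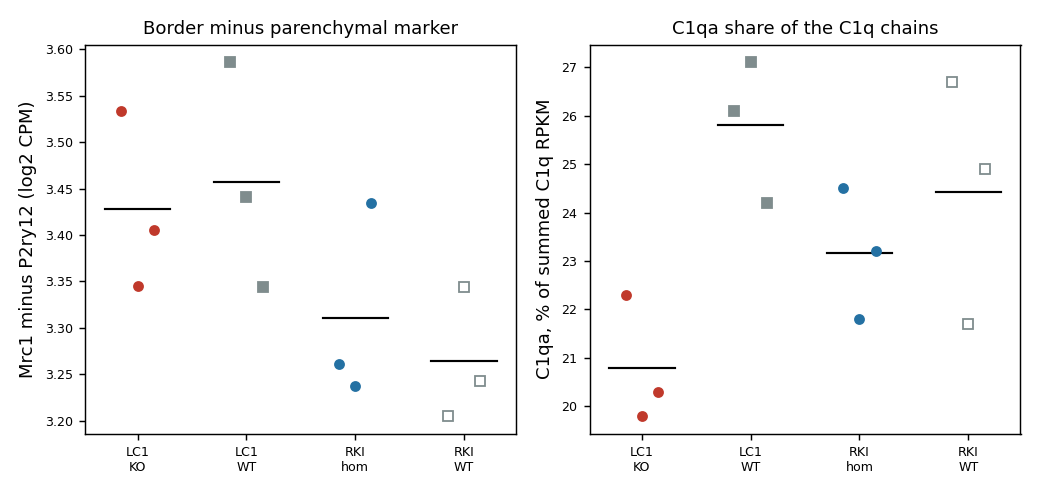
Left, log2 CPM of Mrc1 minus that of P2ry12 per embryo; right, RPKM of C1qa as a percent of the summed RPKM of C1qa, C1qb and C1qc; both axes start above 0, points are embryos coloured by group as labelled and lines are means of 3. On the left the groups overlap within each experiment, and on the right the LC1 knockouts at 19.8% to 22.3% lie below the LC1 wild types at 24.2% to 27.1%.

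RKI wild types were also set against LC1 wild types, a comparison between lines in which line, litter and handling cannot be told apart, and which shares the LC1 wild types with the LC1 comparison. None of the 10 genes passed. edgeR called 2 of 16002 genes (0.0125%), neither of them among the 10, with 623 (3.89%) at an unadjusted p under 0.05, a count of 1078 without A10 and 1186 without A16. Mrc1 had 42.0, 42.4 and 43.4 CPM in RKI wild-type embryos A2, A9 and A16, against 60.5, 46.6 and 44.3 CPM in LC1 wild types 6, 26 and 73, so the RKI wild types were lower without overlap, which 4.23% of all genes showed. Its log2 fold change adjusted for sex was -0.30 (SE 0.115), with an unadjusted p of 0.0196 and an adjusted p of 1 by edgeR. Trem2 had -0.50 (SE 0.231; unadjusted p = 0.0447, adjusted p = 1 by edgeR) in groups that overlapped. Of the 10 genes 9 were lower in RKI wild types, beside 52.1% of all genes, with a median of -0.085, beside -0.007 over all genes. Without LC1 wild type 6 the count was 5 lower and 5 higher, the median was -0.006, Mrc1 had -0.14 and Trem2 -0.325. Without RKI wild type A9 the median was -0.299, Mrc1 had -0.39 and Trem2 -0.64, and without LC1 wild type 73 the median was -0.162.

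Sex varied only among RKI embryos, with 4 males and 2 females. No gene of the 10 differed in males against females, with adjusted p of 0.89 to 0.996 by edgeR's quasi-likelihood test, while edgeR called 8 of all 16002 genes (0.05%) and 829 (5.18%) had an unadjusted p under 0.05. Without female A9 the last count was 421, and without female A10 it was 1918. Of the 10 genes 7 were higher in males, beside 49.7% of all genes, with a median of 0.082 (-0.027 without A10), beside -0.001 over all genes. The lowest unadjusted p, 0.106, belonged to Tyrobp at -0.30 (SE 0.179). C1qa had 0.21 (SE 0.153) and Cx3cr1 0.14 (SE 0.110).

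The genes with profiles nearest to the mean of the 10 were mostly outside the myeloid lists used here, in a measure that favours well-counted genes. Likeness was the root mean square difference between log2 CPM profiles centred on their means over 12 embryos, in which a flat profile lies 0.124 from the mean of the 10. Each gene's own counting error adds to this distance, so genes with few counts could hardly rank near. Among the 10 genes the counting SD was 0.151 for P2ry12 and 0.168 for Tyrobp. The ranking therefore cannot show how many myeloid genes follow the 10. Nearest was Selenop, a secreted selenium carrier, at 0.054, followed by Ndufb2 and Apod at 0.062 and by Fcrls, a microglia surface receptor gene, at 0.063. Others among the 15 nearest, up to 0.068, were Serpinb6a, Slc25a4, Oxct1, Lgals8, Cfap36, Cst3, Acat1, mt-Cytb, Cp and Bad. Of the 15, Fcrls and Cst3 stand on the myeloid lists, which hold 0.387% of the genes tested. Nearest to Mrc1 alone were Serpinb6a at 0.060, Vtn at 0.063, F13a1 at 0.070, Selenop at 0.073 and Tceb2 at 0.081, where a flat profile lies at 0.160. Nearest to P2ry12 alone were Glo1, Sec62, D1Ertd622e, Kcnip3 and Cdc42bpg, at 0.075 to 0.077 with a flat profile at 0.136, and none of these is on the lists. The counting SD of P2ry12, 0.151, is above that 0.136, so these genes may match its counting error only. The profiles share library and scaling, and wild type 6 weighs in each.

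The deposited transcript estimates show which forms carry these levels. C1qa, C1qb and Tyrobp have 1 listed transcript each. Csf1r was split between 2 coding transcripts, and Csf1r-001 made up 53.5%, 65% and 52.1% of the Csf1r RPKM in LC1 knockouts 7, 22 and 71, against 70.7%, 66.6% and 62.5% in LC1 wild types 6, 26 and 73. These groups overlapped, and the share was 61.6% to 67.2% in RKI homozygous embryos and 54.3% to 66.5% in RKI wild types. P2ry12-201 made up a median of 82.3% of P2ry12, with a range of 44.1% to 100% that the few reads leave wide, and Trem2-002 a median of 68.3% of Trem2 with a range of 31.7% to 100%. Cx3cr1-201 was at 0 in all 12 embryos and Cx3cr1-001 took the whole. Most of Aif1 fell on non-coding forms: coding transcripts held a median of 6.92% of its estimated counts (0 to 45.8% over embryos), were at 0 in 5 embryos, and 2 of the 4 coding forms were at 0 in all 12, while the retained-intron form Aif1-007 took a median of 56.6% of the RPKM. These Aif1 estimates rest on few reads. Summed transcript estimates came to 0.633 to 0.778 times the gene count for Mrc1, 1.3 to 1.65 times for Aif1 and 1.39 to 1.57 times for Tyrobp, so the 2 tables count reads differently, and no error is given for the estimates.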

How the data were processed

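Polyadenylated RNA of 12 whole embryonic brains was sequenced, 1 library each. The authors deposited whole-number counts per gene, RPKM per gene and transcript, and estimated counts per transcript. Tools listed in the submitters' processing notes are STAR 2.0.4b and featureCounts 1.4.5 of Subread, besides edgeR and limma, with no roles; for build, annotation and strand setting no source used here has an entry. The deposited RPKM follow the counts over the library total to within 0.0126% on 12441 genes. The authors' deposited tables of log2 fold changes and p-values were read for comparison only, and the RKI sign was turned to homozygous minus wild type. Of 41264 rows, 574 repeated ones were dropped.

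All 12 libraries entered 1 edgeR 4.0.16 quasi-likelihood fit (R 4.3.3; TMM, filterByExpr by group, robust; 4 group means and sex; 7 residual degrees of freedom), with Benjamini-Hochberg adjustment over 16002 genes at 0.05; the common biological coefficient of variation was 6.94%. Each p-value sets a difference against the spread between embryos within groups, shared over the 4 groups and in part across genes. The fit held no litter term, as no label names a litter. Levels are TMM-scaled CPM, and log2 CPM used a prior count of 2. Levels of different genes were compared by RPKM only; estimated counts were not tested. The fit was tested on simulated data. Alternatives were DESeq2 1.42.0, limma 3.58.1 with voom, other scalings, no low-count filter, no sex term, 6 libraries only, a block over neighbouring embryo numbers, and each library left out. The 10 genes and the marker and pathway lists were chosen with earlier results of these data known. Named in each comparison are the 10 genes, the 2 genes of each list with the smallest p, and the nearest profiles, except some that are not reported here; Spi1, Tmem119 and the other leukocyte markers are named after their values were seen. 1 listed symbol, Gpr56, was not matched.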

Additional observations from a re-analysis of the deposited data

How the results depend on the processing

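The directions of the 10 genes in LC1 and RKI held under DESeq2, limma-voom, other scalings, no low-count filter, no sex term, the 6 libraries of each experiment and the replicate block. Without the low-count filter edgeR called 4 genes in LC1, 26 in RKI, 28 between lines and 45 between sexes, and those in RKI, between lines and between sexes held none of the 10. With a replicate block over neighbouring embryo numbers it called 3 genes in RKI and 0 in LC1, and the medians of the 10 were -0.30 in LC1 and 0.053 in RKI; no label pairs the numbers, and the deviations of neighbours correlated at 0.098 to 0.195. Between lines C1qb turned to 0.002 under limma-voom, and without the sex term Cx3cr1 turned to 0.074, Aif1 to 0.023 and Tyrobp to -0.072; the cause was not tested. Leaving out each library gave medians of the 10 of -0.348 to -0.177 in LC1, 0.005 to 0.11 in RKI and -0.299 to -0.006 between lines. It gave 0 to 2 called genes in RKI, 1 to 4 between lines and 7 to 12 between sexes. In RKI it turned C1qa (-0.128 to 0.116), C1qc (-0.002 to 0.165), Csf1r (0 to 0.133), Cx3cr1 (-0.157 to 0.064), P2ry12 (-0.001 to 0.043) and Tyrobp (-0.247 to 0.148). Between lines it turned Aif1 (-0.215 to 0.34), C1qb (-0.085 to 0.152), Csf1r (-0.171 to 0.001), Cx3cr1 (-0.295 to 0.119) and Tyrobp (-0.36 to 0.319). Between sexes it turned Aif1 (-0.207 to 0.354), C1qc (-0.09 to 0.111), Cx3cr1 (-0.057 to 0.352) and Tyrobp (-0.62 to 0.053). The runs of the marker lists without wild type 6 were added after seeing the data. Depth limits Aif1, Trem2, Tyrobp and P2ry12 most, at under 120 counts per library.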

Other observations

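Male against female RKI embryos, 9 of 11 chemokine and nucleotide genes were higher in males with a median of 0.085, and 10 of 12 erythroid genes were lower with a median of -0.135. Of all genes 49.7% were higher in males, and no gene of either list passed edgeR's test. The erythroid score, in mean log2 deviation, was -0.23 in female A9 and 0.272 in female A10, the highest of the RKI embryos. Males ran from -0.307 in A1 to 0.134 in A16, so the erythroid values rest largely on A10. In males against females Itgb2 had a log2 fold change of -0.77 (SE 0.298), with an adjusted p of 0.89 by edgeR. Between lines, 21 of 25 pan-myeloid genes were lower in RKI wild types than in LC1 wild types with a median of -0.145, and 17 of 25 with a median of -0.051 without LC1 wild type 6; none passed edgeR's test.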
